A study of Mus musculus with 12 samples.

Results

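Jmjd1c and 8 related demethylase genes were followed in follicular B cells of the mouse spleen. The members are the rows named Jmjd1c, Kdm3a, Kdm3b, Kdm4a, Kdm4b, Kdm4c, Kdm7a, Phf8 and Phf2, which are 9 of the 24046 gene rows in each file. They were chosen by name, with earlier results of these data known. All 9 passed the filter on low counts, which left 12242 genes to test. The 4 groups were Jmjd1c KO cells after 2 h of anti-IgM, WT cells after 2 h of anti-IgM, Jmjd1c KO cells at 0 h and WT cells at 0 h, with 3 libraries in each. Anti-IgM binds the B cell receptor and so imitates antigen. The labels call the cells sorted, primary follicular (FO) B cells and give each library 1 of 3 batch numbers. The labels do not state the KO allele, any Cre driver or the age of the mice. Cells held for 2 h without anti-IgM were not analysed here, so time in culture and anti-IgM cannot be told apart. The study's title places JMJD1C in the epigenetic control of autoimmunity and of antibodies in HIT, and the comparisons below describe the enzyme family in that setting.

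Methylated lysine 9 of histone H3 (H3K9) marks silenced chromatin. It is written by methyltransferases such as those of the SUV39H and SETDB families and bound by HP1 proteins. Most enzymes that remove it carry a JmjC domain, which uses iron, oxygen and alpha-ketoglutarate to oxidise the methyl group away. The KDM3 family (KDM3A, KDM3B and JMJD1C) acts on the mono- and dimethylated forms, although the activity of JMJD1C itself on H3K9 has been debated. The KDM4 family acts on the di- and trimethylated forms and also on lysine 36. The KDM7 family (KDM7A, PHF8 and PHF2) pairs the JmjC domain with a PHD finger that reads methylated lysine 4.

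In the reported edgeR fit, 3 members were called lower after anti-IgM in both genotypes: Kdm7a, Phf8 and Kdm4a. Their promoters are shown for that reason. All 9 members had negative fitted changes in both genotypes, so these 3 are not set apart by direction. With the animal as a replicate block, Phf8 was not called in WT (edgeR adjusted p = 0.0535) and Phf2 was called in both. Each sequence runs from 250 bases before to 50 bases after the start site, 5′ to 3′ on the gene's own strand, from RefSeq on GRCm38.p6. Such a sequence was found for 7 of the 9 members. Capitals mark matches, on either strand, to the motifs searched. Those motifs were the E-box CACGTG, the EGR motif GCGTGGGCG, the SP/KLF box GGGCGG, the FOXO motif GTAAACA, the cAMP response element TGACGTCA and the HIF core ACGTG, which also lies within the E-box. The Kdm7a promoter is at chr6:39206724-39207023 on the minus strand, the Phf8 promoter at chrX:151520422-151520721 on the plus strand and the Kdm4a promoter at chr4:118179994-118180293 on the minus strand.
Kdm7a: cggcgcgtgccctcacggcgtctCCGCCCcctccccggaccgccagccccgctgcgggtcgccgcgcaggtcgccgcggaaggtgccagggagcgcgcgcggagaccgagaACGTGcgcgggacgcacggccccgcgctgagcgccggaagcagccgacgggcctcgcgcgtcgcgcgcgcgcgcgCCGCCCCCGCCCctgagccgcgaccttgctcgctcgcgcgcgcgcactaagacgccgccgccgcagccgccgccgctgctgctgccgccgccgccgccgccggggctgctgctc
Phf8: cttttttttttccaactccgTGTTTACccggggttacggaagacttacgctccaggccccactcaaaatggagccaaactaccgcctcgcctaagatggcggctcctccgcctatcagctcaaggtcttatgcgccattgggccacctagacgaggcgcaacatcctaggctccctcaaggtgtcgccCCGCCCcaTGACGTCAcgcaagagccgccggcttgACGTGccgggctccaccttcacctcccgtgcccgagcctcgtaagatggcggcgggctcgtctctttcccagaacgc
Kdm4a: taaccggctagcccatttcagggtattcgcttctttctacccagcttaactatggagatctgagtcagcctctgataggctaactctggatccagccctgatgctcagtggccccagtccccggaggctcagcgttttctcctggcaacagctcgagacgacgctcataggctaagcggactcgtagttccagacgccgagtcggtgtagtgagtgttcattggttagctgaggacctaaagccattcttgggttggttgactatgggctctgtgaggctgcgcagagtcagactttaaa
The Kdm7a promoter was 82.7% G or C with 65 CpG sites, against 61.0% and 26 sites for Phf8, 53.3% and 13 sites for Kdm4a, and a median of 52.7% G or C over all 32851 promoters. Kdm7a held 3 SP/KLF boxes and 1 HIF core. Phf8 held 1 FOXO motif, 1 SP/KLF box, 1 cAMP response element and 1 HIF core, and Kdm4a held none of the 6 motifs. Among all promoters the SP/KLF box was in 35.7%, the HIF core in 19.6%, the E-box in 7.15%, the FOXO motif in 3.65%, the cAMP response element in 1.79% and the EGR motif in 0.612%. No motif was common to the 3 promoters, and a match in these letters is a description and not a site of binding.

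Total counts were between 5666013 and 14153396 per library. KO 2 h replicate 1 stood apart: 52.3% of its counts lay on Rn45s, the 45S ribosomal RNA precursor, where the lowest library had 0.418%, and it had the lowest total. In 8 of the 9 members it also held the lowest level of the 12 libraries. A list of 6 proliferation genes summed to 289 to 1119 CPM at KO 2 h and 283 to 444 CPM at WT 2 h. Mki67 alone had 529 CPM in KO 2 h replicate 1 and 138 CPM in WT 2 h replicate 1. It had 67.2 to 97.1 CPM in batch 2 and 8.81 to 14.5 CPM in the remaining libraries. The part of Rn45s or Mki67 in the results was not tested. CPM here is the count divided by the TMM-scaled library total and put on the usual CPM scale. The 5 B cell markers summed to at least 2121 CPM in every library. Those of T cells summed to 59.6 to 184, myeloid cells to 26.5 to 102 and NK cells to 2.35 to 7.78 CPM. Platelet markers summed to 5.01 to 68.3 CPM at KO 2 h and up to 25.0 CPM at WT 2 h, and erythroid markers to 0.619 to 25.7 CPM. Among T cell markers, Lck averaged 121 CPM at KO 2 h, 129 at WT 2 h, 45.5 at KO 0 h and 51.3 at WT 0 h. The group means of Cd3d, Cd3e, Cd4 and Cd8a were 3.72 to 8.52 CPM. No marker gene measured was at 0 throughout a group.

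Jmjd1c transcripts were lower in KO than in WT cells at both times but were not lost. At 2 h the KO libraries had 208, 213 and 199 CPM, against 322, 294 and 269 CPM in the WT libraries. At 0 h they had 230, 236 and 196 CPM, against 360, 326 and 288 CPM in the WT libraries. Every KO library lay below every WT library at either time, and KO was lower in 6 of 6 pairs of the same batch and time. These pairs hold 3 animals per genotype, each taken at both times, so they are not 6 independent comparisons. Kdm4a and Phf2 also had 6 of 6, and the share of all genes with 6 of 6 was not computed. The fitted log2 difference was -0.52 ± 0.13 (SE) at 2 h and -0.56 ± 0.13 at 0 h, which left 70.0% of the WT level at 2 h (95% interval 57.6 to 84.9%) and 68.0% at 0 h (56.1 to 82.5%). Within batches 1, 2 and 3 it was -0.63, -0.47 and -0.44 at 2 h, and -0.64, -0.47 and -0.55 at 0 h.

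These differences were larger than the spread between libraries but did not pass the adjustment over 12242 genes. In edgeR's quasi-likelihood test Jmjd1c ranked 7 by p at 2 h (unadjusted p = 0.00178, adjusted p = 0.887) and 3 at 0 h (unadjusted p = 0.000997, adjusted p = 0.9999). An exact two-sided permutation test of Jmjd1c alone gave p = 0.1 at each time, the smallest that 3 against 3 libraries allow. With the batch number as a replicate block, edgeR gave adjusted p = 0.679 at 2 h and 1 at 0 h, and DESeq2 gave 1.98e-06 at 2 h and 5.05e-08 at 0 h. The counts hold the whole gene, so they do not show whether the remaining transcripts include a deleted part. Jmjd1c (GENCODE vM21 on GRCm38, chr10:67096125-67256326, plus strand) overlaps Reep3 on the opposite strand over 821 bases. Reep3 had 169 to 2677 counts per library against 615 to 4730 for Jmjd1c, and no label or header states whether the counting used strand, so reads of the overlap cannot be told apart.

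**Figure D1:**
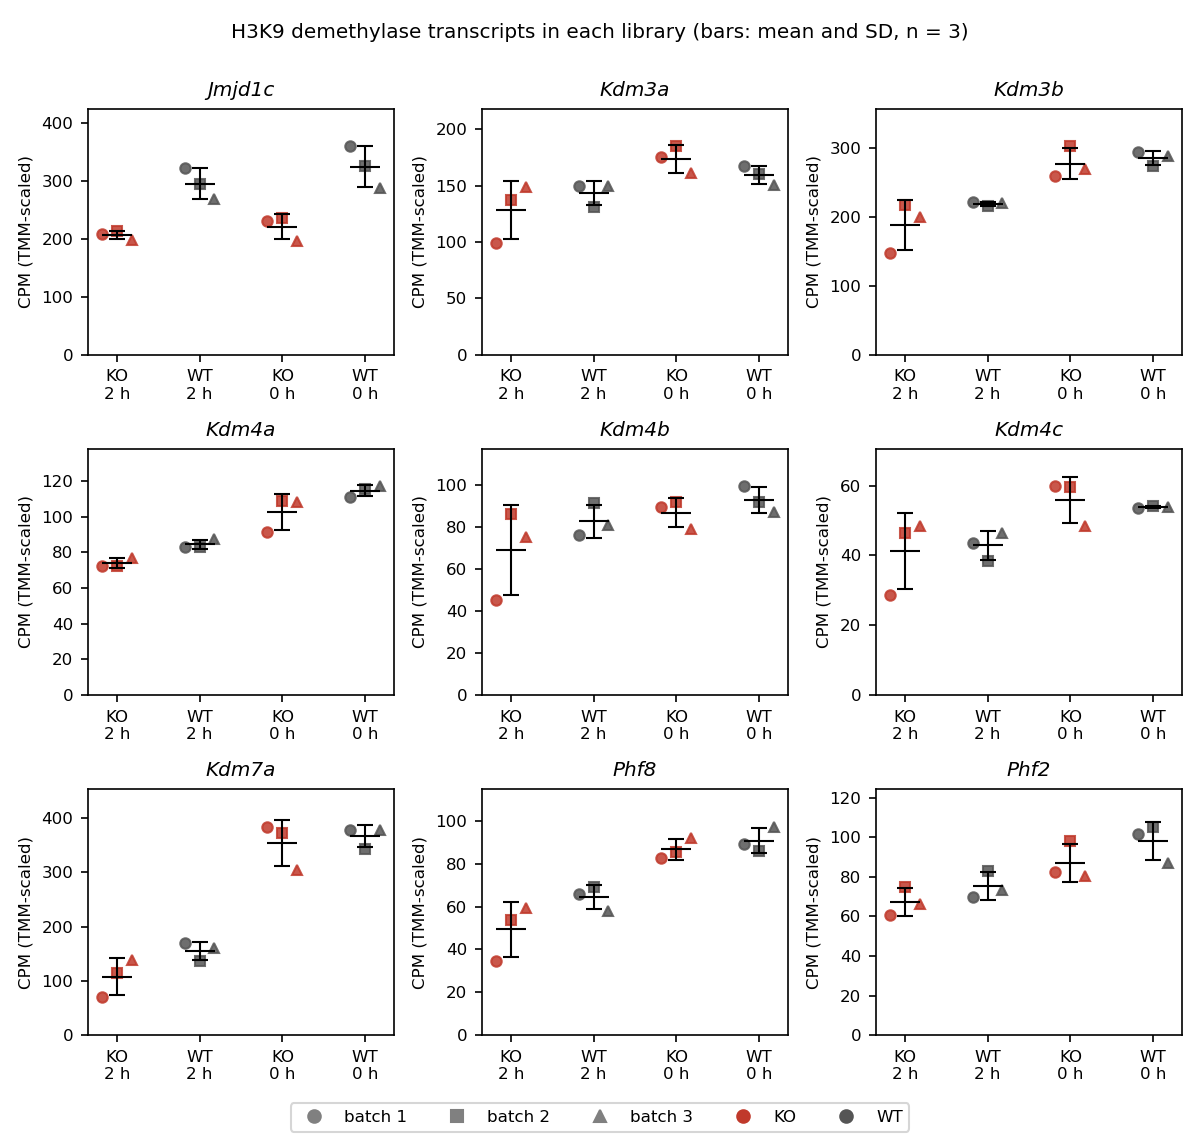
TMM-scaled CPM of the 9 members in each library, on linear axes from 0. Points are libraries (circle, square and triangle for batches 1, 2 and 3, red for KO and grey for WT) and bars are the mean and SD of 3 libraries; the KO libraries of Jmjd1c lie between 196 and 236 CPM, below every WT library, and those of Kdm7a at 2 h lie below all at 0 h.

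No change of Jmjd1c after anti-IgM was detected. It averaged 207 ± 7.29 CPM at 2 h and 221 ± 21.4 CPM at 0 h in KO cells, and 295 ± 26.3 CPM at 2 h and 325 ± 35.7 CPM at 0 h in WT cells (SD, n = 3). The log2 change was -0.10 ± 0.13 in KO (95% interval -0.38 to 0.18, edgeR adjusted p = 0.595) and -0.14 ± 0.13 in WT (-0.42 to 0.14, edgeR adjusted p = 0.522). The libraries of the 2 times overlapped in both genotypes, and 5 of 6 animals were lower at 2 h. The response differed between KO and WT by 0.04 ± 0.18 on the log2 scale (-0.35 to 0.43, edgeR adjusted p = 1). In order of level the groups ran from WT 0 h to WT 2 h, KO 0 h and KO 2 h, and within each genotype the neighbours did not differ beyond their spread.

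The question of whether relatives rose where Jmjd1c was low was read from KO against WT. None of the 8 relatives was called higher or lower in KO cells at either time, and neither was any other gene: 0% of tested genes were called at 2 h and 0% at 0 h (edgeR, adjusted p under 0.05). At an unadjusted p under 0.05 there were 640 genes at 2 h (5.23% of genes), among them Jmjd1c and 2 relatives, Kdm7a and Phf8, both lower in KO. At 0 h there were 91 genes (0.743%), among them Jmjd1c and 0 relatives. DESeq2 called 0 genes at 2 h and 1 at 0 h, which was not a member. The median log2 difference of the 8 relatives was -0.20 at 2 h and -0.06 at 0 h, against 0.0066 and -0.0023 for all tested genes. All 8 fitted differences were below 0 at 2 h, and 6 of 8 at 0 h. The highest upper bound of any 95% interval of a relative was 126% of the WT level at 2 h (Kdm4c) and 135% at 0 h (Kdm3a).

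Within the KDM3 family, Kdm3a encodes a demethylase known for its role in spermatogenesis and for induction by hypoxia. It had 99.4, 137 and 148 CPM in KO cells at 2 h, against 150, 131 and 150 CPM in WT cells. Before anti-IgM it had 175, 185 and 161 CPM in KO cells, against 167, 160 and 151 CPM in WT cells. The genotypes overlapped at both times, and Kdm3a had the highest log2 difference of the 9 at 0 h, 0.12 ± 0.14. KO cells held 89.7% of the WT level at 2 h (95% interval 72.3 to 111%) and 109% at 0 h (87.9 to 135%).

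Kdm3b encodes the close paralogue of JMJD1C that is broadly expressed. It had 148, 218 and 200 CPM in KO cells at 2 h, against 222, 216 and 221 CPM in WT cells. In 0 h libraries it had 259, 303 and 270 CPM in KO cells, against 295, 275 and 289 CPM in WT cells. The genotypes overlapped at both times. KO cells held 86.1% of the WT level at 2 h (95% interval 69.6 to 107%) and 96.9% at 0 h (78.4 to 120%).

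In the KDM4 family, every KO library of Kdm4a, whose product removes di- and trimethyl marks from lysines 9 and 36, lay under every WT library at both times. It had 72.4, 72.4 and 77.0 CPM in KO cells at 2 h, against 82.9, 83.1 and 87.5 CPM in WT cells. At 0 h it had 91.2, 109 and 108 CPM in KO cells, against 111, 116 and 117 CPM in WT cells. The gap was small, -0.19 ± 0.10 at 2 h and -0.16 ± 0.10 at 0 h on the log2 scale. It did not pass the edgeR test (adjusted p = 0.887 and 0.9999, unadjusted p = 0.0745 and 0.127). Jmjd1c and Kdm4a were thus the 2 of 9 members with every KO library below every WT library at each time, where 3.59% of all tested genes showed this at 2 h and 2.90% at 0 h. The share of genes with this at both times was not computed, and the times share animals.

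Kdm4b and Kdm4c encode the other members of that family measured here. Kdm4b had 45.3, 86.4 and 75.3 CPM in KO cells at 2 h, against 76.0, 91.5 and 80.9 CPM in WT cells. At 0 h Kdm4b had 89.3, 92.1 and 79.2 CPM in KO cells, against 99.3, 92.0 and 87.4 CPM in WT cells. The genotypes overlapped, and KO held 84.4% of the WT level at 2 h (63.5 to 112%) and 93.5% at 0 h (70.6 to 124%).

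Kdm4c, the KDM4 gene with the lowest level per length, had 28.7, 46.4 and 48.6 CPM in KO cells at 2 h, against 43.6, 38.5 and 46.5 CPM in WT cells. In 0 h libraries it had 59.8, 59.6 and 48.4 CPM in KO cells, against 53.5, 54.2 and 54.0 CPM in WT cells. The genotypes overlapped at both times, with 97.6% of the WT level at 2 h (75.3 to 126%) and 104% at 0 h (80.6 to 134%).

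In the KDM7 family the size of the 2 h difference of Kdm7a and Phf8 turned on KO 2 h replicate 1, while its fitted sign did not. Kdm7a, whose product acts on the lower methylation states of lysines 9 and 27, had 71.0, 115 and 138 CPM in KO cells at 2 h, against 169, 137 and 160 CPM in WT cells. At 0 h it had 384, 373 and 305 CPM in KO cells, against 379, 344 and 377 CPM in WT cells. The genotypes overlapped at each time by 1 or more libraries. The log2 difference was -0.52 ± 0.20 at 2 h (edgeR adjusted p = 0.887) and -0.05 ± 0.20 at 0 h, and without KO 2 h replicate 1 the value at 2 h was -0.30 ± 0.14.

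Phf8, an X-linked gene whose human orthologue is mutated in a form of intellectual disability with cleft lip and palate, had 34.8, 53.8 and 59.5 CPM in KO cells at 2 h, against 65.9, 69.0 and 58.1 CPM in WT cells. At 0 h it had 82.7, 85.5 and 92.3 CPM in KO cells, against 89.3, 86.0 and 97.4 CPM in WT cells. Only KO 2 h replicate 3 reached into the WT range at 2 h. The log2 difference at 2 h was -0.36 ± 0.16 (edgeR adjusted p = 0.887), and -0.18 ± 0.10 without KO 2 h replicate 1. Xist, the RNA of the inactive X chromosome, was at 618 CPM in KO 2 h replicate 1 and 1153 to 1303 CPM elsewhere in batch 1. It was at 32.3 to 53.5 CPM in batch 2 and 0.863 to 1.47 CPM in batch 3, over both genotypes. The lowest library of the Y-linked gene Kdm5d had 8.46 CPM at KO 2 h and 1.86 CPM at WT 2 h. Its lowest 0 h library had 0.151 CPM in KO and 0.159 CPM in WT cells. The part of these values in the results was not tested.

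Phf2, whose product is recruited by its PHD finger and is active on dimethylated H3K9 once phosphorylated, was lower in KO in 6 of 6 pairs of the same batch and time. As for Jmjd1c, these pairs hold 3 animals per genotype at both times and are not independent. It had 60.5, 74.7 and 66.0 CPM in KO cells at 2 h, against 69.7, 83.1 and 73.2 CPM in WT cells. At 0 h it had 82.5, 97.9 and 80.3 CPM in KO cells, against 102, 105 and 87.1 CPM in WT cells. The ranges of the genotypes overlapped at each time, and the log2 difference was -0.16 ± 0.13 at 2 h and -0.17 ± 0.13 at 0 h (edgeR adjusted p = 0.887 and 0.9999).

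**Figure D2:**
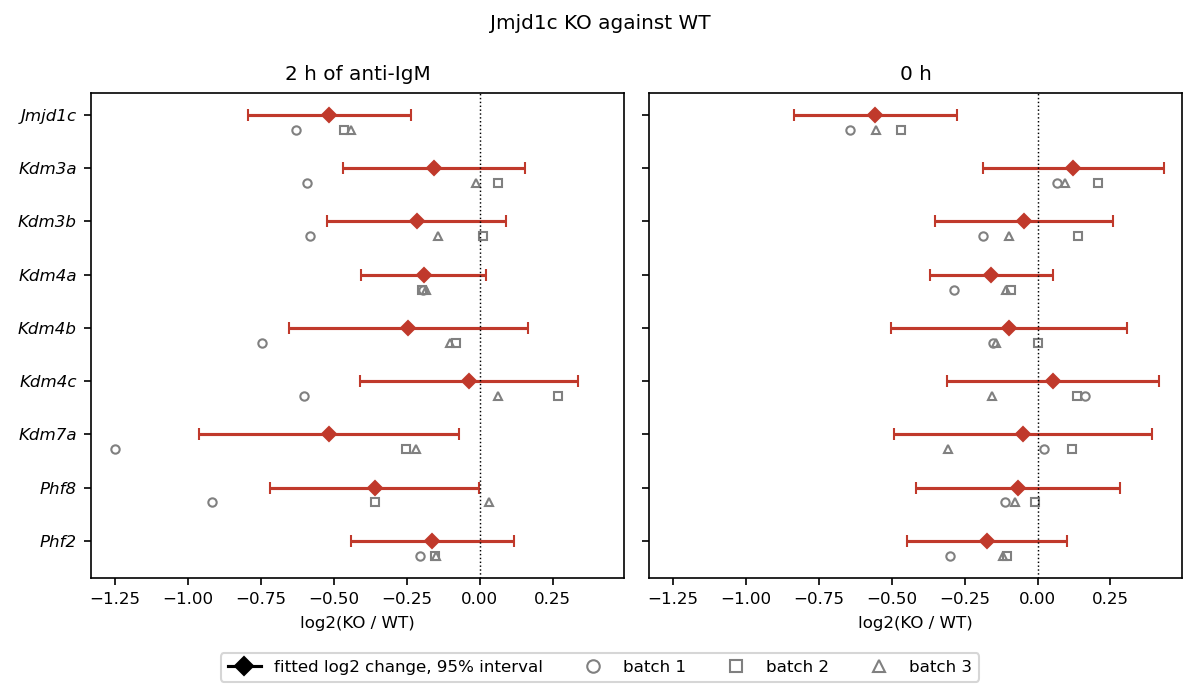
Log2 difference of KO against WT for the 9 members, at 2 h of anti-IgM (left) and at 0 h (right). Diamonds and bars are the fitted value and its 95% interval, and open symbols are the log2 ratios within batches 1, 2 and 3; Jmjd1c lies at -0.52 and -0.56, while the batch 1 symbols of most relatives lie far left at 2 h.

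The difference from WT at 2 h moved upward for all 8 relatives when KO 2 h replicate 1 was left out, and that of Kdm4c changed sign. It then stood at -0.01 ± 0.11 for Kdm3a, -0.07 ± 0.10 for Kdm3b, -0.18 ± 0.10 for Kdm4a, -0.03 ± 0.11 for Kdm4b, 0.14 ± 0.12 for Kdm4c and -0.10 ± 0.13 for Phf2. That of Jmjd1c stayed at -0.52 ± 0.13. None of the 9 was called with or without that library.

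Added up per length, the relatives gave no higher total in KO cells. As CPM per kb of exon, the 8 relatives summed to 94.6, 135 and 135 in KO libraries at 2 h, against 143, 140 and 144 in WT libraries. At 0 h they summed to 189, 203 and 178 in KO libraries, against 201, 192 and 193 in WT libraries. The KO sums lay below all WT sums at 2 h and overlapped them at 0 h. The share of Jmjd1c in the total of the 9 was 19.7, 15.0 and 14.1% in KO and 20.1, 19.0 and 17.3% in WT at 2 h, and 12.02, 11.5 and 11.0% in KO and 16.7, 15.9 and 14.3% in WT at 0 h. KO 2 h replicate 1 had the highest Jmjd1c share of the KO libraries, with 208 CPM of Jmjd1c and the lowest sum of the relatives. In bulk RNA, fewer cells that express a gene and less RNA per cell cannot be told apart.

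**Figure D3:**
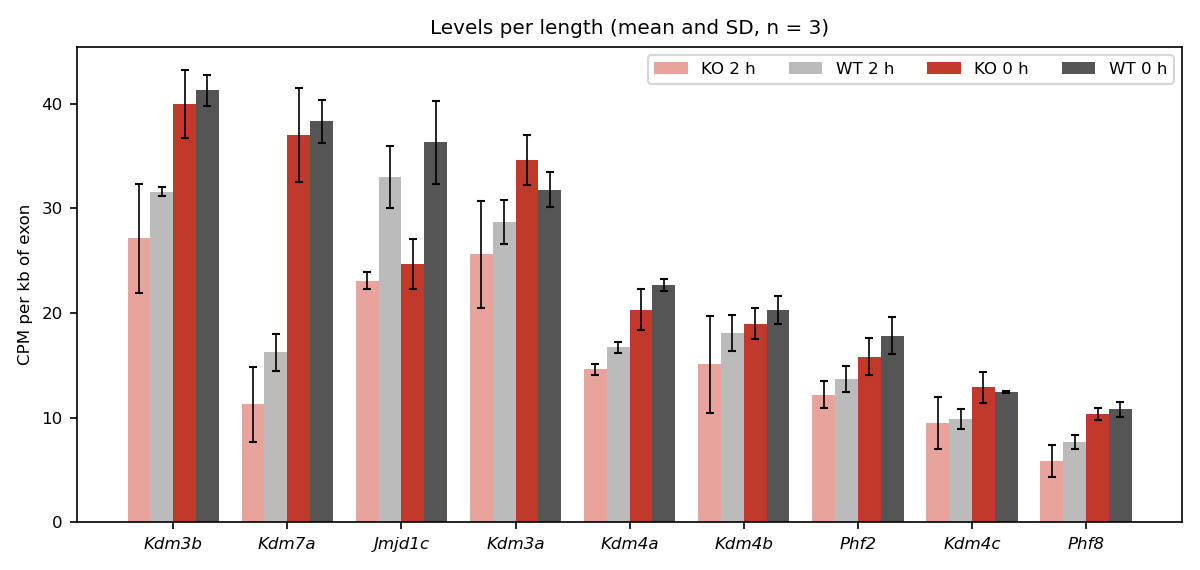
Level of each member per length, as CPM per kb of exon (bars, mean and SD of 3 libraries, axis from 0), in KO 2 h, WT 2 h, KO 0 h and WT 0 h cells, ordered by the WT 0 h level. Kdm3b leads at 41.3 CPM per kb in WT 0 h cells and Phf8 is last at 10.8, and Kdm7a drops to 11.3 in KO and 16.2 in WT cells at 2 h.

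Per length, 4 members formed an upper group in WT cells at 0 h: Kdm3b at 41.3 ± 1.48, Kdm7a at 38.3 ± 2.07, Jmjd1c at 36.3 ± 3.99 and Kdm3a at 31.8 ± 1.64 CPM per kb of exon. Kdm7a did not differ from Jmjd1c beyond the SD of either. The lower group ran through Kdm4a at 22.7 ± 0.587, Kdm4b at 20.3 ± 1.32 and Phf2 at 17.8 ± 1.76 to Kdm4c at 12.4 ± 0.0902 and Phf8 at 10.8 ± 0.702. Kdm4c and Phf8 changed places when the longest coding transcript was used as the length. In KO cells at 0 h Jmjd1c stood at 24.7 ± 2.40, rank 4 of 9. At 2 h it stood at 23.1 ± 0.815 in KO cells, rank 3, and at 33.0 ± 2.94 in WT cells, rank 1 (rank 2 by the longest coding transcript).

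After 2 h of anti-IgM some members fell and none rose. In KO cells 5 of the 9 members fell (Kdm3a, Kdm3b, Kdm4a, Kdm7a and Phf8), where 27.1% of all tested genes were called in either direction and 13.0% as lower. In WT cells 3 of 9 fell (Kdm4a, Kdm7a and Phf8) and none rose, where 19.8% of genes were called and 9.06% as lower. All 9 fitted changes were negative in both genotypes. The median log2 change of the 8 relatives was -0.45 in KO and -0.38 in WT cells, against 0.043 and 0.0090 for all tested genes. The B cell markers moved too, with 4 of 5 called lower in KO and 2 of 5 in WT, and their summed level at 2 h was 2203 to 3600 CPM in KO and 2121 to 3185 in WT, against 4244 to 4898 in KO and 3736 to 4833 in WT at 0 h; their part in the result was not tested.

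Kdm7a had the largest change of the 9. Its 2 h libraries held between 71.0 and 138 CPM in KO and between 137 and 169 CPM in WT cells, and its 0 h libraries held between 305 and 384 CPM in KO and between 344 and 379 CPM in WT cells. The log2 change was -1.70 ± 0.21 in KO (edgeR adjusted p = 0.000264) and -1.24 ± 0.21 in WT (adjusted p = 0.00189), which left 30.7% (95% interval 22.4 to 42.1%) and 42.4% (31.1 to 57.9%) of the 0 h level. Each of 6 animals was lower at 2 h, and Kdm7a was called under every alternative run. Its rank per length at 0 h was 2 in both genotypes, and at 2 h it was 7 in KO and 6 in WT cells. Its locus, chr6:39136623-39206789 on the minus strand of GRCm38, overlaps the antisense gene 4930599N23Rik over 11690 bases, which had 7 to 239 counts per library against 210 to 6186 for Kdm7a.

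The fall of Kdm7a was steeper in KO than in WT cells by -0.47 ± 0.29 on the log2 scale, which was not called (95% interval -1.09 to 0.16, edgeR adjusted p = 1). By batch that difference was -1.27, -0.37 and 0.09, and it was -0.25 ± 0.19 without KO 2 h replicate 1. For no member was the difference of the responses called, and 0% of all tested genes were. At an unadjusted p under 0.05 there were 39 genes and 0 members in edgeR, and DESeq2 with the batch as a replicate block called 1 gene and no member.

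Phf8 and Kdm4a fell by less than Kdm7a. Phf8 changed by -0.79 ± 0.16 in KO (edgeR adjusted p = 0.00454) and by -0.50 ± 0.16 in WT (adjusted p = 0.0486), and the 2 h libraries lay below all 0 h libraries of the same genotype. The WT call was close to the threshold: it held under 11 of 23 alternatives and was lost with the animal as a replicate block (adjusted p = 0.0535), while the KO call held under all 23. Kdm4a changed by -0.47 ± 0.10 in KO (adjusted p = 0.00458) and -0.44 ± 0.10 in WT (adjusted p = 0.00839), with 6 of 6 animals lower at 2 h. Its KO call held under 22 of 23 alternatives and was lost in a fit of only the groups compared (edgeR adjusted p = 0.0520). The WT call of Kdm4a held under all 23.

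Both KDM3 relatives were called lower in KO cells and not in WT cells in the reported fit, and the difference between the responses was not called for either. Kdm3b changed by -0.55 ± 0.14 in KO (edgeR adjusted p = 0.0130) and by -0.38 ± 0.14 in WT (adjusted p = 0.0766), and 2 h lay below 0 h in all libraries of both genotypes. The KO call of Kdm3b held under 21 of 23 alternatives, and was lost without KO 0 h replicate 2 (adjusted p = 0.0581) and in a fit of only the groups compared (0.0844). In WT cells Kdm3b was called under 6 of 23, among them DESeq2 (adjusted p = 0.0126), only the groups compared (0.0131) and the fit without KO 2 h replicate 1 (0.00763). Kdm3a changed by -0.43 ± 0.14 in KO (adjusted p = 0.0436) and by -0.15 ± 0.14 in WT (adjusted p = 0.538). The Kdm3a call in KO held under 7 of 23 alternatives. Leaving out any 1 of the 12 libraries other than KO 2 h replicate 3 ended it, with adjusted p up to 0.126. The KO change of Kdm3a was -0.28 ± 0.11 without KO 2 h replicate 1 (adjusted p = 0.0681), and with the batch number as a replicate block the adjusted p was 0.0512.

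The other 3 relatives did not pass the test in either genotype in the reported fit. Phf2 changed by -0.37 ± 0.13 in KO (edgeR adjusted p = 0.0516) and -0.38 ± 0.13 in WT (adjusted p = 0.0559), and was called with the batch number as a replicate block (adjusted p = 0.0161 in KO and 0.0157 in WT). With the animal as a replicate block Phf2 was called too (edgeR adjusted p = 0.0406 in KO and 0.0454 in WT). Kdm4c changed by -0.42 ± 0.17 in KO (adjusted p = 0.0901) and -0.33 ± 0.17 in WT (adjusted p = 0.209). It was called in KO under 1 of 23 alternatives, without KO 2 h replicate 3 (adjusted p = 0.0466), and in WT under 4 of 23, among them the fit without KO 2 h replicate 1 (0.0376) and that of only the groups compared (0.0432). Kdm4b changed by -0.31 ± 0.19 in KO (adjusted p = 0.227) and -0.17 ± 0.19 in WT (adjusted p = 0.602), and was called under no alternative. Without KO 2 h replicate 1 the KO change was -0.10 ± 0.11 for Kdm4b, -0.23 ± 0.12 for Kdm4c and -0.30 ± 0.13 for Phf2. For the relatives called in KO it was then -1.48 ± 0.14 for Kdm7a, -0.61 ± 0.10 for Phf8, -0.46 ± 0.10 for Kdm4a and -0.41 ± 0.10 for Kdm3b, all of them still called.

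**Figure D4:**
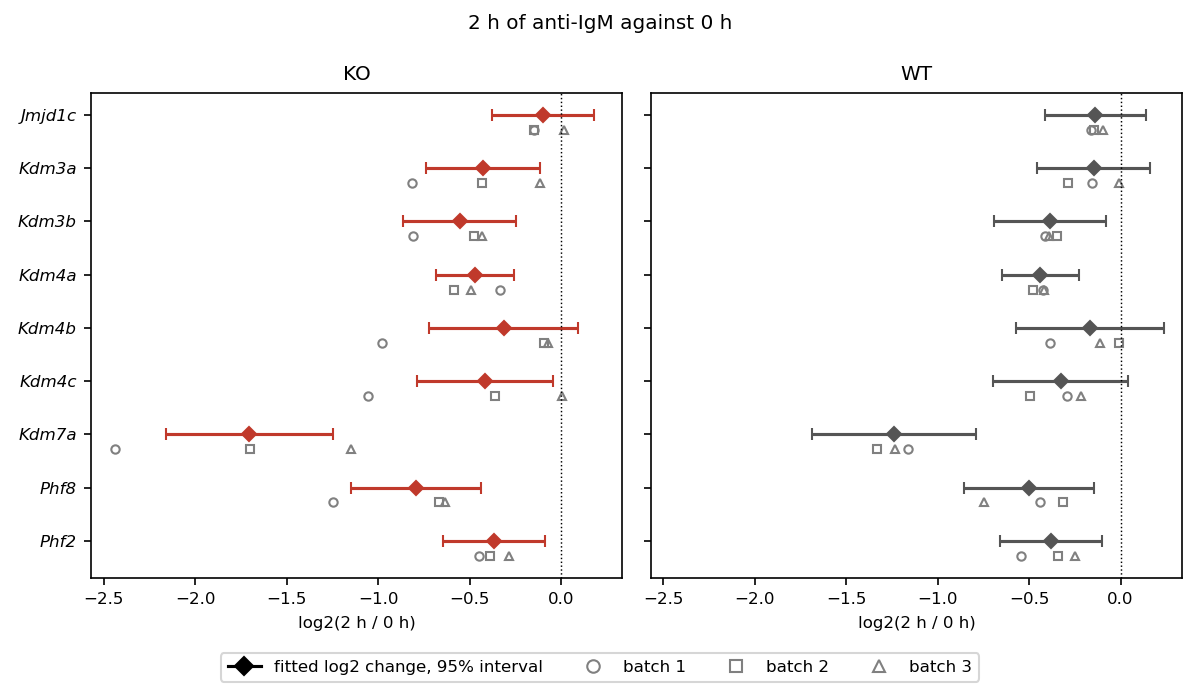
Log2 change of 2 h of anti-IgM against 0 h for the 9 members, in KO cells (left) and WT cells (right). Diamonds and bars are the fitted change and its 95% interval, and open symbols are the log2 ratios of the pair of libraries in each batch; Kdm7a lies farthest left at -1.70 in KO and -1.24 in WT, and Jmjd1c lies near 0 in both.

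Other genes of the H3K9 pathway, from lists chosen with earlier results of these data known, moved both ways after anti-IgM, and none was called in KO against WT at either time. Of 3 other H3K9 demethylases, Hr and Kdm4d were too low to test, and Kdm1a, which encodes LSD1, averaged 93.7 CPM at 2 h and 99.1 CPM at 0 h in KO cells, and 98.5 CPM at 2 h and 102 CPM at 0 h in WT cells (adjusted p = 0.627 in KO and 0.835 in WT, edgeR). Of 19 other JmjC and LSD genes, 3 rose and 2 fell in KO cells, and 3 rose and 3 fell in WT cells. Of all tested genes, 27.1% were called in KO and 19.8% in WT, and the counts of this and the other lists are descriptions beside those shares. In KO cells 10 of the 19 were called with the batch number as a replicate block, 9 without KO 2 h replicate 1 and 2 in a fit of only the groups compared. In WT cells 3 were called without WT 2 h replicate 2 or without WT 0 h replicate 3. Kdm2b, which recruits a Polycomb complex to CpG islands, averaged 296 CPM at 2 h and 93.0 CPM at 0 h in KO cells, and 352 CPM at 2 h and 88.9 CPM at 0 h in WT cells. It changed by 1.67 ± 0.35 in KO and 1.99 ± 0.35 in WT on the log2 scale. Kdm2a and Kdm5a fell in both, Kdm2a by 0.82 in KO and 0.66 in WT, Kdm5a by 0.53 in KO and 0.50 in WT.

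Of 13 H3K9 methyltransferases and partners, 1 rose and 2 fell in each genotype in the reported fit, where 27.1% of all tested genes were called in KO and 19.8% in WT. In KO, 5 were called with the batch number as a replicate block, 6 without KO 2 h replicate 1 and 5 without KO 2 h replicate 2. Suv39h2, which encodes a trimethylating enzyme, changed by 1.54 ± 0.25 in KO and 1.61 ± 0.24 in WT. Setdb2 fell by 1.07 in KO and 0.99 in WT, and Atf7ip, the partner of SETDB1, fell by 1.28 in KO and 1.05 in WT. Of 6 HP1 and other readers, Cbx1, which encodes HP1 beta, was called higher in KO (0.35 ± 0.08) and none in WT (Cbx1 0.22 ± 0.08, adjusted p = 0.0832, edgeR). Of the 6 readers, 2 were called in KO with the same block, without KO 2 h replicate 1 or without KO 2 h replicate 3. In WT, 2 were called without KO 2 h replicate 1 and 1 without WT 2 h replicate 3. Of 13 targets of the hypoxia factor HIF, 4 rose and 0 fell in KO, and 4 rose and 1 fell in WT, where 3 were called without WT 2 h replicate 2 or without WT 0 h replicate 1. Of 12 anti-IgM response genes, 9 rose in each genotype.

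The genes whose log2 CPM followed that of Jmjd1c most closely over the 12 libraries, out of 10941 searched, were Mtr (r = 0.86), Gna12 (0.84), Sdc1 (0.84), Zc3h7b (0.82) and Dpy19l3 (0.81). These are Pearson correlations over libraries that share animals, batches and the genotype groups, given as a description. Sdc1 averaged 36.3 ± 7.92 CPM in KO and 67.1 ± 15.3 CPM in WT cells at 2 h, and 47.7 ± 8.07 CPM in KO and 70.6 ± 9.44 CPM in WT cells at 0 h. Sdc1 is also 1 of the 2 plasma cell markers measured. Their sum was 49.7 to 73.5 CPM in KO and 74.4 to 104 CPM in WT at 2 h. At 0 h the sum was 56.0 to 75.9 CPM in KO and 75.6 to 93.1 CPM in WT. The other marker, Prdm1, averaged 21.5 CPM in KO and 27.0 CPM in WT cells at 2 h. At 0 h Prdm1 went the other way from Sdc1, with 18.5 CPM in KO and 13.8 CPM in WT cells. The part of these markers in the Jmjd1c difference was not tested. The relatives correlated with Jmjd1c between 0.20 (Kdm4c) and 0.56 (Phf2). Among themselves they correlated between 0.57 (Kdm4a with Kdm4b) and 0.95 (Kdm3b with Phf8). KO 2 h replicate 1 was low in nearly all of them, and their fitted changes after anti-IgM were all negative. The part of either in these correlations was not tested.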

How the data were processed

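Poly(A) RNA of sorted splenic follicular B cells was sequenced in 12 libraries from 4 groups of 3. The authors aligned reads to mm10 with STAR, per the submitters' processing notes. How reads were counted, with which annotation and with or without strand, was not stated in the labels or headers. Each deposited file held the raw, unnormalized counts of 1 library by gene symbol. Identifiers in the library names, shared by a 0 h and a 2 h library, were taken to mark 6 animals.

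In edgeR 4.0.16 under R 4.3.3, filterByExpr on the 4 groups kept 12242 genes, totals were scaled with TMM, and 1 quasi-likelihood model of the 4 group means took in all 12 libraries. Benjamini-Hochberg adjustment ran over all tested genes, with calls made under an adjusted p of 0.05. Tests were two-sided. Standard errors came from the F statistic. CPM and CPM per kb (exon union of GENCODE vM21 basic, GRCm38) were computed here. The model was tested on simulated counts.

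The members, the lists and the naming rule were chosen with earlier results of these data known. The rule named all 9 members, up to 4 genes of each H3K9 or JmjC list by smallest p, and the 5 genes most like Jmjd1c above a mean log2 CPM of 1. Other genes named here (Rn45s, Mki67, Xist, Kdm5d, Reep3, 4930599N23Rik, Prdm1, Lck, Cd3d, Cd3e, Cd4, Cd8a) bear on a member's value or on a marker sum.

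For the ratios within batches and for the batch block, libraries were paired by batch number, since the labels name it as a batch. The reported fit had no block, so it treated all 12 libraries as independent. Deviations from group means correlated between -0.40 and 0.86 for libraries of the same number and between -0.76 and 0.62 for others. For the 6 pairs of libraries taken as the same animal they lay between -0.40 and 0.59. These values did not set the animal pairs apart, so the animals rest on the library names alone. Alternatives were DESeq2 1.42.0, RLE size factors, batch and animal blocks, no filter, 1 CPM in 6 libraries, leaving out Rn45s, the 2 h libraries of batch 1 or each library, and fitting only the groups compared. A floor of 3 counts came to 0.183 to 1.01 CPM per library, which covers counting error only. No pair of replicates agreed within sampling noise (chi-square per degree of freedom 13.7 to 847).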

Additional observations from a re-analysis of the deposited data

How the results depend on the processing

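Jmjd1c kept its direction in KO against WT under every alternative run. It was called with DESeq2 and the batch as a replicate block (-0.50 at 2 h, -0.55 at 0 h) and, at 0 h alone, with the edgeR batch block without both 2 h libraries of batch 1 (-0.55, adjusted p = 0.0218), an alternative added after seeing the data. The first of these called 18 genes and 1 member at 2 h, 5 genes and 1 member at 0 h, and 1 gene in the difference of responses. The second called 2 genes at 2 h, 5 genes and 1 member at 0 h, and after anti-IgM 5516 genes in KO and 5205 genes and 6 members in WT. DESeq2 alone called 1 gene in KO against WT at 0 h and 5 members in WT after anti-IgM; with the batch block, and likewise in edgeR without both 2 h libraries of batch 1, 5 members were called there. Fitting only the groups compared called 1733 genes and 2 members in KO and 6 members in WT. It equals the reported fit for the difference of responses, and the animal block gives no value for KO against WT. DESeq2 moved the median log2 change of all genes in KO to 0.16.

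Leaving out each library in turn gave 3 to 6 members called in KO (3 without KO 0 h replicate 2), and 2 to 6 members and 1278 to 3617 genes in WT. The WT count of genes was 1278 when WT 2 h replicate 2 was dropped, 1540 when WT 2 h replicate 3 was dropped, 1499 when WT 0 h replicate 1 was dropped and 1476 when WT 0 h replicate 3 was dropped. In WT, 6 members were called without KO 2 h replicate 1.

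Signs that turned belonged to uncalled values. For KO against WT at 2 h, without both 2 h libraries of batch 1 and then with the block as well, Kdm3a was at 0.029 and 0.028 and Kdm4c at 0.16 and 0.15; leaving out 1 library put Kdm4c at -0.17 to 0.14. At 0 h that range was -0.11 to 0.00049 for Kdm3b and -0.11 to 0.046 for Kdm7a. For the difference of responses the same pair of settings gave 0.011 and 0.012 for Kdm4b and 0.10 and 0.10 for Kdm4c, and no filter gave -0.0020 for Phf2. Leaving out 1 library gave -0.076 to 0.10 for Phf2, -0.33 to 0.064 for Kdm4b, -0.22 to 0.092 for Kdm4c, -0.11 to 0.0054 for Kdm4a and -0.042 to 0.12 for Jmjd1c. The cause was not tested. Apart from Kdm3a, Phf8 and Phf2 after anti-IgM, the batch and animal blocks in edgeR changed no call of a member. Read depth limits KO 2 h replicate 1 most.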
